A study of Mus musculus with 14 samples.

Results

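The mitochondrial carriers of the SLC25 family were examined in subcutaneous white adipose tissue, the fat depot under the skin, in 12-week-old males of the inbred mouse strain C57BL/6. Members were the genes whose single symbol in the array annotation begins with Slc25a, each read from its probe set with the highest mean over all arrays. This gave 44 carriers of 18193 named genes, of which 37 passed a filter on low signal (a mean of 389.8 signal units) and were tested among 12944 genes. The exercised group had 7 arrays from mice given 11 days in wheel cages. The sedentary group had 7 arrays from sedentary controls labelled with the same 11 days. Both groups share strain, sex and age, and the labels name no mutation, drug or diet for either. Whether each array is a mouse of its own is not said, so a p-value here reflects only array-to-array spread, part of which may be technical.

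The inner mitochondrial membrane lets few metabolites through, and SLC25 carriers exchange nucleotides, carboxylic acids, amino acids, acylcarnitines, cofactors, phosphate and iron across it. They share a fold of repeated pairs of membrane helices, and most work by exchanging a molecule inside for a molecule outside. In fat they link mitochondria to opposite tasks: acylcarnitines enter to be burned, while citrate leaves to build new fatty acids. The uncoupling proteins of thermogenic fat belong to the same family under other symbols.

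Of the 37 carriers tested, 10 rose in exercised tissue and 0 fell at an adjusted p under 0.05 (limma, Benjamini-Hochberg over all genes), where 4.0% of all genes tested (518 of 12944) rose and 1.53% fell, 5.53% in either direction. At an unadjusted p under 0.05 there were 17 higher and 3 lower carriers, against 11.3% and 10.5% of all genes. The median difference was 0.25 on the log2 scale for the carriers and -0.028 for all genes tested. The 10 were the carnitine carrier Slc25a20, the carboxylate carriers Slc25a1, Slc25a10 and Slc25a11, the cofactor carriers Slc25a42 and Slc25a51, the pyrimidine nucleotide carrier Slc25a33, the glutathione carrier Slc25a39, and Slc25a34 and Slc25a46, whose substrates are less certain. In 6 of the 37 every exercised array lay above every sedentary one, which was so for 1.95% of all genes tested, and 0 carriers showed the reverse, against 0.734%. Of the 10, Slc25a34 passed the filter on low signal only through its exercised arrays. Differences are of log2(signal + 46.7), so they understate changes of weakly measured genes. In whole tissue, fewer cells of a type and less RNA per cell cannot be told apart.

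**Figure D1:**
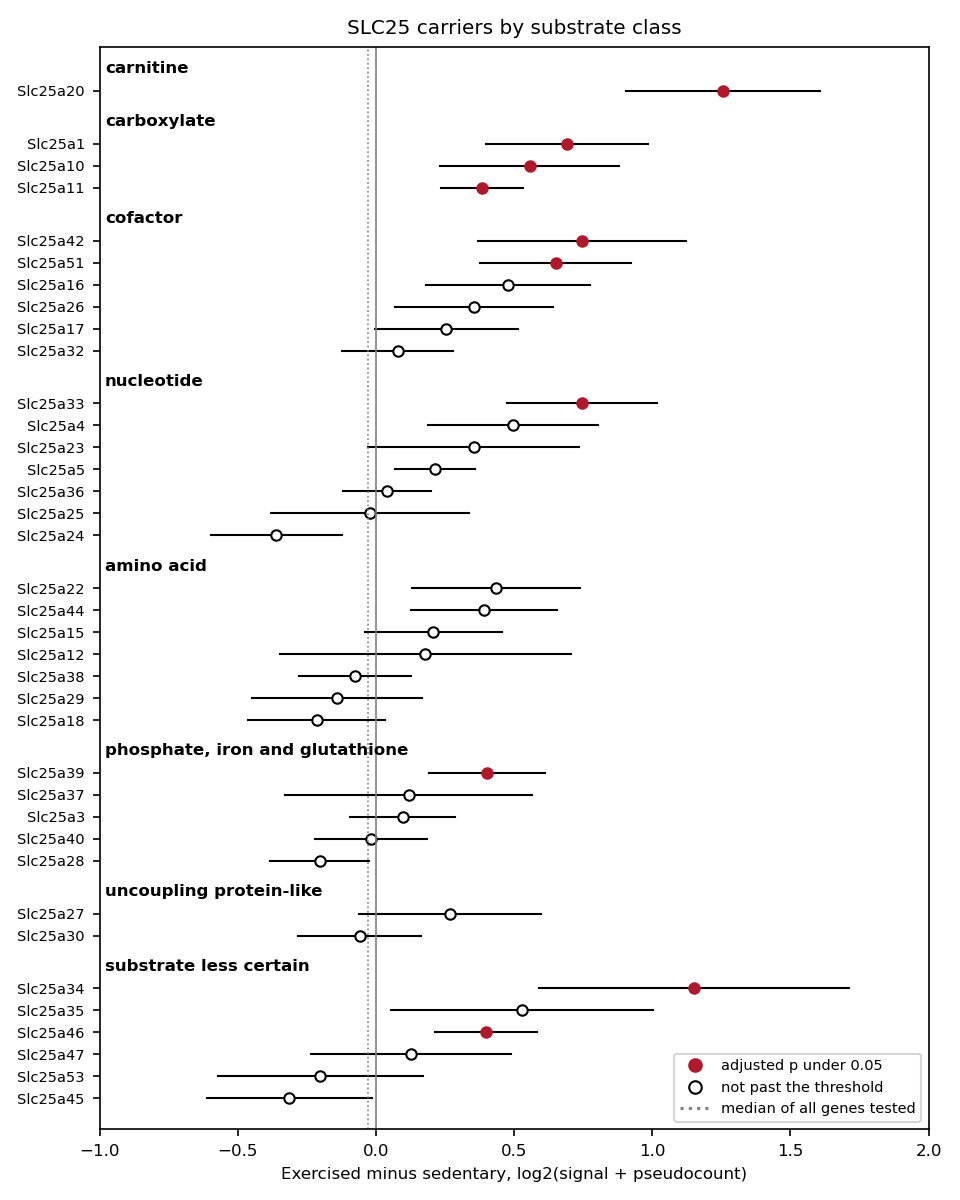
Difference between exercised and sedentary arrays (x axis, log2 of signal plus pseudocount, exercised minus sedentary) for the 37 carriers tested, grouped by substrate class, with 95% confidence intervals. Filled circles mark the 10 carriers that passed the test; all 3 carboxylate carriers are filled and none of the 7 amino acid carriers is.

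The promoters of the 2 carriers with the largest differences are shown as RefSeq gives them in assembly GRCm38.p6, from 250 bases before to 50 bases after the annotated start. That of Slc25a20, at chr9:108661886-108662185 on the plus strand, has in capitals the letters CCGGAAG, the core recognised by GA-binding protein, an ETS factor of many mitochondrial genes. That of Slc25a34, at chr4:141623785-141624084 on the minus strand, has in capitals TGACCTT, the other strand of AAGGTCA, the end of the element bound by oestrogen-related receptors.
Slc25a20: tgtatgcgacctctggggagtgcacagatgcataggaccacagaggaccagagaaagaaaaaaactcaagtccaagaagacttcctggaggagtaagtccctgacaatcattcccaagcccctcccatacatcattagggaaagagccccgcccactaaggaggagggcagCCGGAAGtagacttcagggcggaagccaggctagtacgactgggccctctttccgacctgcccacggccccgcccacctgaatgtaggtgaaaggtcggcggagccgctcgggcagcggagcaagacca
Slc25a34: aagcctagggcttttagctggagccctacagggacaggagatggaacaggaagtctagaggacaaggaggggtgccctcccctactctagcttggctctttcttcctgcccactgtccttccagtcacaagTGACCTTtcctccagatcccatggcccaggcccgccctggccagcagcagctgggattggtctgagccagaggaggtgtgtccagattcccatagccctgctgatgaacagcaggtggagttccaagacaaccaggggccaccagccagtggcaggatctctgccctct

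The table of promoters held 34 of the 44 carriers, 8 of them among the 10 that rose. On either strand CCGGAAG stood in 7 of the 34 (Slc25a3, Slc25a4, Slc25a17, Slc25a20, Slc25a25, Slc25a38 and Slc25a54) and in 9.93% of 27025 genes. Slc25a20 alone of the 8 carriers that rose had it. The shorter receptor letters AAGGTCA stood in 1 of the 34 and in 5.38% of all genes. The full TCAAGGTCA, which contains them, stood in 0 of the 34 and in 0.466% of all genes. The palindromic element of nuclear respiratory factor 1 stood in 0 of the 34 and in 1.07% of all genes. The cyclic AMP response element TGACGTCA stood in Slc25a25 and Slc25a36, neither of which passed the test, and in 2.03% of all genes. These matches describe letters in a window and say nothing of binding.

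The carnitine class has 1 member. Slc25a20 brings acylcarnitines into the matrix for fatty acid oxidation and sends carnitine back. Its signal was 11090 at the lowest, 17723 at the median and 21879 at the highest on exercised arrays, against 4909, 6511 and 9120 on sedentary arrays. The groups did not overlap. The carrier averaged 16921 ± 3723 in exercised and 7059 ± 1595 in sedentary tissue (SD, n = 7 each). It rose by 1.26 on the log2 scale, or 2.39-fold (SE 0.16, 95% interval 0.90 to 1.61, limma adjusted p = 0.00143). A further probe set of the gene rose by 1.003 (SE 0.16), also without overlap. Cpt2, the enzyme that takes over the acylcarnitines inside the matrix, rose as well, by 0.94 (SE 0.15, adjusted p = 0.00304), while Cpt1a, an enzyme that makes them on the outer membrane and that was picked out after its values were seen, differed by 0.013 (SE 0.12, adjusted p = 0.966).

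All 3 carboxylate carriers measured rose, with a median difference of 0.56. Slc25a1 exports citrate, from which the cytosol makes acetyl-CoA for fatty acid synthesis. Its signal ran from 23485 over a median of 25072 to 34705 on exercised arrays, against 11155, 17380 and 21624 on sedentary arrays. The groups did not overlap, and the gene rose by 0.69 (SE 0.14, 95% interval 0.40 to 0.99, limma adjusted p = 0.01004). Slc25a11 exchanges 2-oxoglutarate for malate in the malate-aspartate shuttle, which carries reducing power into the matrix. Signals of the gene ran from 6153 over 6805 to 7751 on exercised arrays, against 4650, 5280 and 5837 on sedentary arrays. Here too the groups stood apart, and the spread within each was narrow. It rose by 0.38 (SE 0.070, adjusted p = 0.0059), or 1.30-fold. Slc25a10 exchanges malate or succinate for phosphate. Its signal ran from 13977 over 16931 to 22706 on exercised arrays and from 6680 over 12479 to 14648 on sedentary arrays. The lowest exercised array lay within the sedentary range, and sedentary array 5 lay far below the others of its group. It rose by 0.56 (SE 0.15, adjusted p = 0.0451). The difference at its second probe set was 0.58 (SE 0.20, adjusted p = 0.124 over all probe sets). The call of Slc25a10 was the least firm of the 10. It ended when any 1 of exercised arrays 1, 3, 4, 5, 6 or 7 or of sedentary arrays 3, 4, 6 or 7 was left out (adjusted p 0.0546 to 0.0937), while the difference stayed between 0.49 and 0.58 in those fits.

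**Figure D2:**
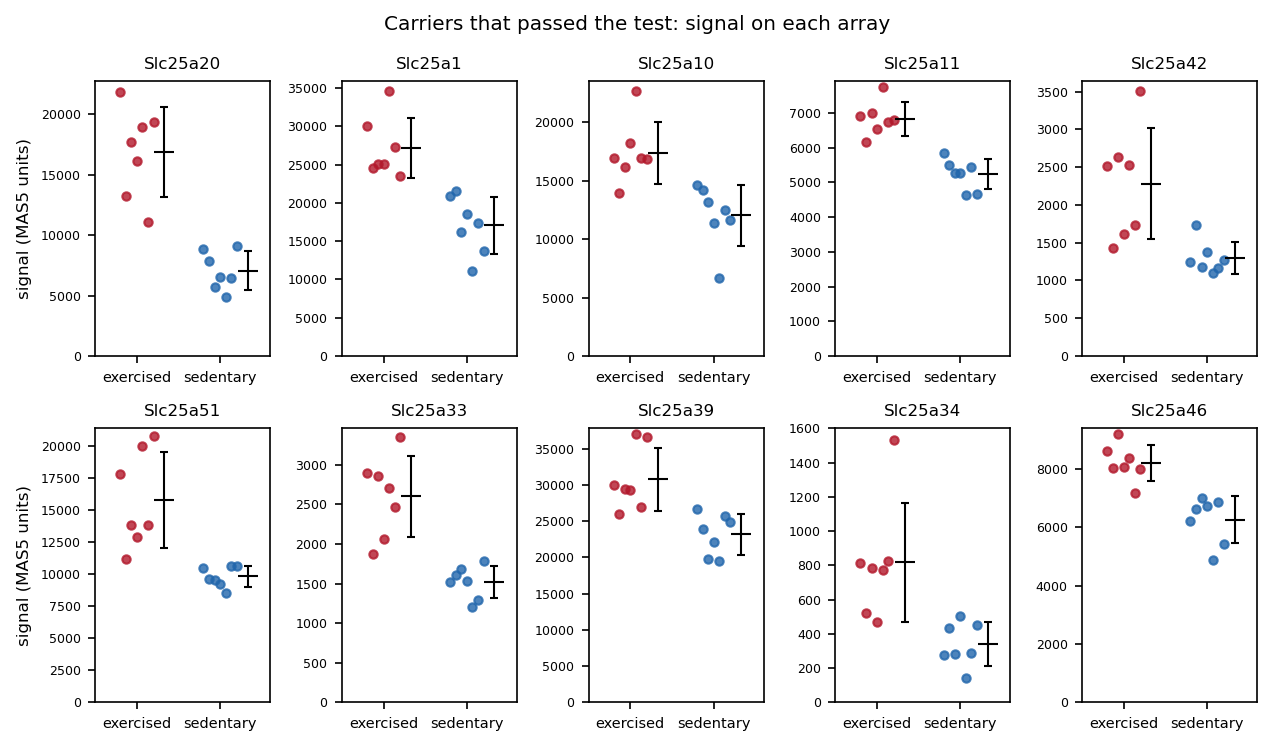
Signal on each array (y axis, MAS5 signal units, linear from 0) of the 10 carriers that passed the test, with exercised arrays left and sedentary arrays right in each panel. Points are arrays, in order of replicate number, and black bars are the mean and SD of 7 arrays. Slc25a20 has a lowest exercised value of 11090 and a highest sedentary value of 9120, while Slc25a42 and Slc25a34 overlap.

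Of the 6 cofactor carriers 2 rose, all 6 differences were positive, and the median was 0.42. Slc25a51 imports NAD, the electron carrier of the matrix dehydrogenases. Its signal was 11199 at the lowest, 13835 at the median and 20760 at the highest on exercised arrays, against 8532, 9637 and 10660 on sedentary arrays. The groups did not overlap, and the exercised arrays spread over a wider range. It rose by 0.65 (SE 0.13, limma adjusted p = 0.00909), and both of its other probe sets rose, by 0.62 and 0.55. Slc25a42 imports coenzyme A, which activates fatty acids. Its signal ran from 1427 over 2518 to 3513 on exercised arrays and from 1102 over 1244 to 1729 on sedentary arrays. Exercised arrays 2 and 4 lay within the sedentary range. It rose by 0.75 (SE 0.18, adjusted p = 0.024), a call that ended without exercised array 1, 3 or 5 (adjusted p 0.0532 to 0.0553). Slc25a16, also linked to coenzyme A, averaged 5256 ± 200 in exercised and 3871 ± 945 in sedentary tissue, a difference of 0.48 (SE 0.14, adjusted p = 0.0584) that missed the threshold. Without sedentary array 5, whose signal of 2266 was the lowest, its difference was 0.36 and passed (adjusted p = 0.0399), as it did without sedentary array 7 (0.54, adjusted p = 0.0305). The S-adenosylmethionine carrier Slc25a26 differed by 0.35 (SE 0.13, adjusted p = 0.141), the peroxisomal cofactor carrier Slc25a17 by 0.25 (SE 0.12, adjusted p = 0.236) and the folate carrier Slc25a32 by 0.079 (SE 0.094, adjusted p = 0.654).

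Among nucleotide carriers 1 of the 7 tested rose, 5 differences were positive, and the median was 0.21. Slc25a33 imports pyrimidine nucleotides, which mitochondrial DNA and RNA synthesis use. Its signal ran from 1877 over 2705 to 3359 on exercised arrays, against 1211, 1532 and 1785 on sedentary arrays. The groups did not overlap, and it rose by 0.75, or 1.68-fold (SE 0.13, 95% interval 0.47 to 1.02, limma adjusted p = 0.00433). Its relative Slc25a36, with the same kind of substrate, differed by 0.041 (SE 0.075, 95% interval -0.12 to 0.20, adjusted p = 0.784), with other probe sets at -0.17 and 0.077. The log2 ratio of Slc25a33 to Slc25a36 was higher on each exercised array than on any sedentary array, by 0.71 on average. This pair and those below were formed after the values were seen, and no test was made of them.

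The 2 adenine nucleotide translocases, which trade ADP for ATP, did not pass the test. Slc25a4, the form of heart and muscle, ran from 27394 over 31388 to 48264 on exercised arrays and from 18192 over 27523 to 28951 on sedentary arrays. Its difference of 0.50 (SE 0.14, adjusted p = 0.0574) lay just outside the threshold, and its other probe sets that passed the filter differed by 0.51 and 0.52. The 3 highest values, 48264, 43628 and 38328, came from exercised arrays 6, 3 and 2, which also had the highest means of skeletal muscle markers. Slc25a5, the widely expressed form, averaged 30873 ± 3176 in exercised and 26500 ± 1254 in sedentary tissue, a difference of 0.21 (SE 0.068, 95% interval 0.070 to 0.36, adjusted p = 0.0796). All 7 of its other probe sets were positive, between 0.13 and 0.26, and 0 of them passed. These 2 genes are close in sequence, and most probe sets of Slc25a5 are of the type the maker marks as able to bind related transcripts.

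The calcium-regulated carriers of ATP-Mg for phosphate, which set the matrix pool of adenine nucleotides, pointed different ways. Slc25a24 ran from 3835 over 4261 to 5131 on exercised arrays and from 4624 over 5484 to 7871 on sedentary arrays. All 7 exercised values lay below the sedentary median. The difference was -0.36 (SE 0.11, 95% interval -0.60 to -0.12, adjusted p = 0.0713), and the other probe set also gave -0.36 (SE 0.11). Slc25a23 differed by 0.35 (SE 0.18, adjusted p = 0.263) and Slc25a25 by -0.022 (SE 0.17, adjusted p = 0.954). The log2 ratio of Slc25a23 to Slc25a24 was higher by 0.71 on average in exercised tissue, but only 3 exercised arrays lay above all sedentary ones.

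None of the 7 amino acid carriers tested passed the test, and 2 were higher at an unadjusted p under 0.05, with a median of 0.18. The glutamate carrier Slc25a22 averaged 3994 ± 869 in exercised and 2919 ± 497 in sedentary tissue, a difference of 0.44 (SE 0.14, 95% interval 0.13 to 0.74, adjusted p = 0.0898). It passed without exercised array 2 (0.51, adjusted p = 0.0475). Slc25a44, which brings branched-chain amino acids into mitochondria of brown fat, averaged 3118 ± 639 in exercised and 2342 ± 294 in sedentary tissue (0.39, SE 0.12, adjusted p = 0.0791). Its probe sets did not give the same size, since the others differed by 0.0032 and 0.18. Slc25a12, the calcium-activated exchanger of aspartate for glutamate, differed by 0.18 (SE 0.25, adjusted p = 0.703). A second probe set gave -0.15. Its signal was 3360 and 4204 on exercised arrays 3 and 6, which had the highest muscle marker means, and at most 2099 on the other exercised arrays. The ornithine carrier Slc25a15 differed by 0.21 (SE 0.12, adjusted p = 0.313), and by -0.057 at a second probe set. The glycine carrier Slc25a38 (-0.075), the basic amino acid carrier Slc25a29 (-0.14) and the glutamate carrier Slc25a18 (-0.21) had negative differences, with adjusted p between 0.298 and 0.673.

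Of the 5 carriers of phosphate, iron and glutathione 1 rose. Slc25a39 imports glutathione, the main thiol antioxidant of the matrix. Values ran from 26032 over 29476 to 36986 on exercised arrays and from 19501 over 23917 to 26629 on sedentary arrays. The groups met only at their edges, with the lowest exercised array below the highest sedentary one. It rose by 0.40 (SE 0.099, limma adjusted p = 0.0279), a call that ended without exercised array 1, 3, 5 or 7 or sedentary array 3 or 4 (adjusted p 0.0507 to 0.0621). The chosen probe set is of the type that can bind related transcripts, and of the other 3 that passed the filter 2 rose, by 0.57 and 0.64, and 1 differed by 0.46 (SE 0.15, adjusted p = 0.107 over all probe sets). Its relative Slc25a40 differed by -0.018 (SE 0.096, 95% interval -0.22 to 0.19, adjusted p = 0.932). Slc25a3, the phosphate carrier that supplies ATP synthase, averaged 29776 ± 3952 in exercised and 27696 ± 2216 in sedentary tissue (0.096, SE 0.089, adjusted p = 0.551). Its second probe set gave -0.15. The iron importers Slc25a37 (0.12, SE 0.21, adjusted p = 0.774) and Slc25a28 (-0.20, SE 0.084, adjusted p = 0.172) did not pass.

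Of the 6 tested carriers of less certain substrate 2 rose. Slc25a34 is named as a carrier from its sequence. Its signal was 471 at the lowest, 787 at the median and 1532 at the highest on exercised arrays, against 140.9, 288 and 502.7 on sedentary arrays. Exercised array 4 lay within the sedentary range. The mean was 817.4 in exercised and 340.1 in sedentary tissue, so the gene passed the filter of 389.8 only through its exercised arrays. It was not tested with the filter at the 60th percentile. It rose by 1.15, or 2.22-fold (SE 0.26, 95% interval 0.59 to 1.71, adjusted p = 0.02). Its relative Slc25a35 differed by 0.53 (SE 0.22, adjusted p = 0.18). Slc25a46 lies in the outer membrane and is linked to mitochondrial shape. Its signal ran from 7189 over 8079 to 9189 on exercised arrays, against 4879, 6641 and 7022 on sedentary arrays. The groups did not overlap, it rose by 0.40 (SE 0.087, adjusted p = 0.0159), and its other probe set rose by 0.42. Slc25a45 (-0.31, SE 0.14, adjusted p = 0.206), Slc25a53 (-0.20) and Slc25a47 (0.13) did not pass, the last 2 at adjusted p of 0.528 and 0.691. Neither did the carriers that resemble uncoupling proteins, Slc25a27 (0.27, SE 0.15, adjusted p = 0.324) and Slc25a30 (-0.059, SE 0.10, adjusted p = 0.775).

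The 7 carriers under the filter were not tested. Their mean signals in exercised and sedentary tissue were 407 and 307 for the ornithine carrier Slc25a2, 356 and 362 for Slc25a48, and 342 and 402 for Slc25a14. They were 106 and 206 for Slc25a54, 90.6 and 102 for Slc25a13, 75.3 and 57.6 for the testis-type translocase Slc25a31, and 47.8 and 29.2 for Slc25a41. Slc25a13 is the partner of Slc25a12 known from liver.

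Many carriers are read by several probe sets, 93 in all for the 44 genes. Among 33 other probe sets that passed the filter, 27 had the same sign as the chosen one. The 6 of other sign belonged to Slc25a3, Slc25a12, Slc25a15, Slc25a25 and Slc25a36, none of which passed the test. Of the 8 that belong to carriers that rose, 6 passed too when all 27022 kept probe sets were tested together, and the exceptions were in Slc25a10 and Slc25a39. In that fit 3.5% of the highest-mean probe sets of the 12944 genes rose, and the share of all 27022 was not counted. These 8 read the same genes on the same arrays that picked the carriers, so the count is not separate support.

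**Figure D3:**
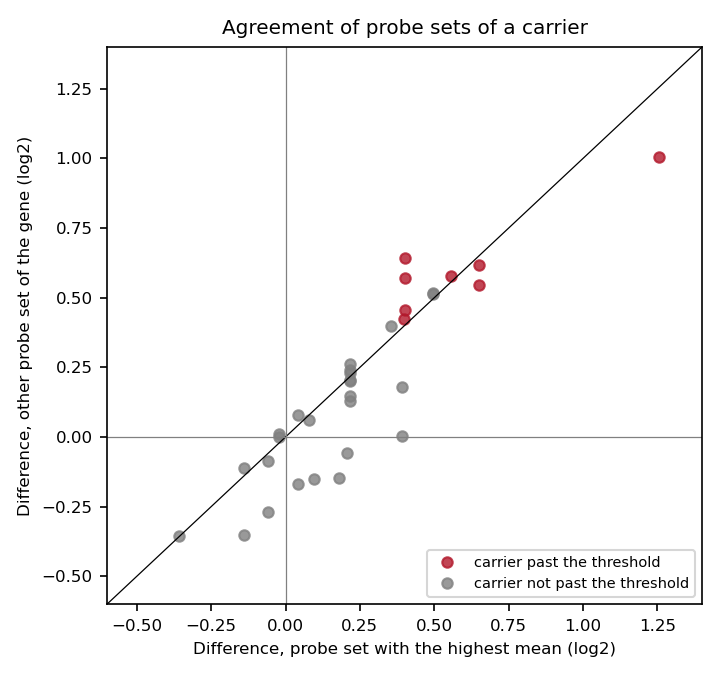
Differences between exercised and sedentary arrays (log2) of the probe set with the highest mean of each carrier (x axis) and of its other probe sets that passed the filter (y axis), with the line of equality. The 8 points of carriers that rose lie above 0 on both axes, and the 6 of opposite sign lie between -0.17 and 0.21.

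The carriers moved together on some arrays. The mean log2 level of the 37 ran from 11.80 over 11.88 to 12.00 on exercised arrays and from 11.38 over 11.63 to 11.73 on sedentary arrays. Sedentary array 5 was the lowest of its group for all 10 carriers that rose and for 24 of the 37. Exercised array 2 was the lowest of its group for 6 of those 10, and exercised arrays 5 and 7 were each the highest for 4. Without sedentary array 5 there were 11 carriers that rose, the 10 and Slc25a16, where 3.84% of all genes rose. Differences of the 10 were smaller in that fit, for example 0.42 against 0.56 for Slc25a10.

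Markers of skeletal muscle, a tissue rich in mitochondria, were high on some arrays of either group. All 22 muscle markers tested had positive differences, with a median of 2.75, and 0 passed the test. At an unadjusted p under 0.05, 17 were higher, against 11.3% of all genes. Of the 22, Myh2 and Mb passed the filter on low signal only through their exercised arrays. Their means were 1103.1 and 5289.8 in exercised tissue, against 241.9 and 312.9 in sedentary tissue, so their positive sign was partly set by the filter. The summed signal of 23 markers lay between 15353 and 925261 on exercised arrays and between 12676 and 339045 on sedentary arrays. Some single values lay under the 46.7 added to each signal, such as 18.3 on an exercised and 16.5 on a sedentary array for Neb. Exercised arrays 1 and 4 had muscle means of 9.01 and 8.65, within the sedentary range of 8.43 to 12.71. On both of these arrays 8 of the 10 carriers that rose were above every sedentary array, and the exceptions were Slc25a34 and Slc25a42 on array 4. Both arrays were part of the test that picked these 10, so the count is not separate support. Slc25a5, Slc25a16, Slc25a22 and Slc25a35, which did not pass, also lay above every sedentary array on both. The share of all genes was not counted. With the muscle mean as a covariate 5 carriers rose, where 1.41% of all genes did: Slc25a20 (1.41, SE 0.18, adjusted p = 0.00568), Slc25a33 (0.71), Slc25a1 (0.71), Slc25a51 (0.68) and Slc25a11 (0.37). The other 5 no longer passed (adjusted p between 0.0894 and 0.169), with differences of 1.12 for Slc25a34, 0.77 for Slc25a42, 0.55 for Slc25a10, 0.43 for Slc25a39 and 0.38 for Slc25a46. In that fit the difference of Slc25a4 was 0.29 (SE 0.14) and that of Slc25a12 was -0.17 (SE 0.24). In the 2 exercised and 5 sedentary arrays with muscle means under 10, a subset chosen after seeing the data, 0 carriers and 3 of all genes passed by limma. At an unadjusted p under 0.05 there were 11 higher and 1 lower carriers there, where 3.67% of all genes were higher and 277 of 12944 lower. Of those 11, 9 had been picked by the main fit, which includes these arrays. Differences of the 10 carriers in these arrays were 1.45 for Slc25a20, 0.80 for Slc25a34 (SE 0.45), 0.77 for Slc25a1, 0.71 for Slc25a33, 0.68 for Slc25a10, 0.64 for Slc25a51, 0.60 for Slc25a42, 0.46 for Slc25a46, 0.40 for Slc25a11 and 0.36 for Slc25a39.

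**Figure D4:**
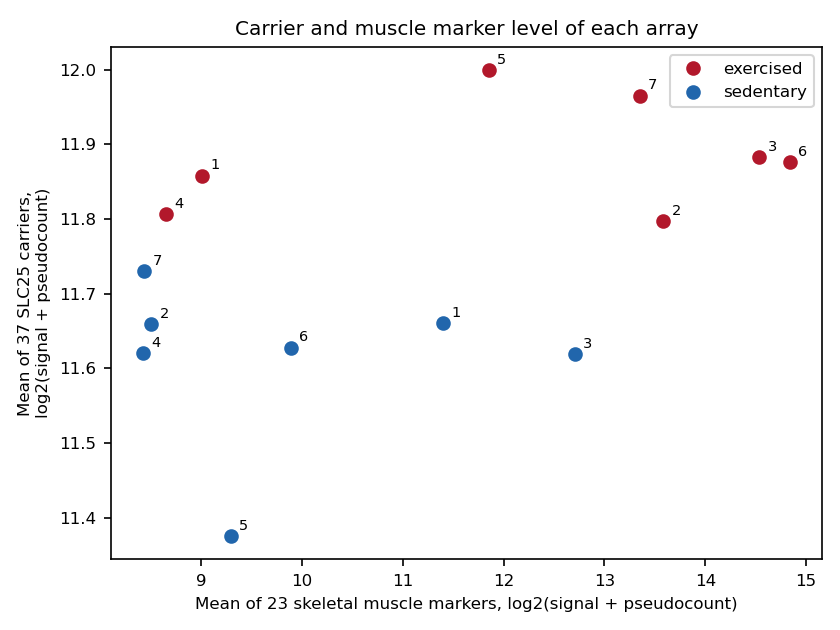
Mean log2 level of the 37 tested carriers (y axis) against the mean log2 level of 23 skeletal muscle markers (x axis) on each of the 14 arrays, numbered by replicate. Exercised arrays lie between 11.80 and 12.00 and sedentary arrays between 11.38 and 11.73 on the y axis, over overlapping ranges of muscle level.

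Markers of thermogenic adipocytes moved in the same samples. Against 4.0% and 1.53% of all genes tested, 7 of their 11 tested rose and 0 fell. Of the 7, Slc27a2 passed the filter on low signal only through its exercised arrays (mean 1811.9, against 273.9 in sedentary tissue). Ucp1, another of the 7, is counted again among the other transporters below. The summed signal of the thermogenic markers lay between 57518 and 190558 on exercised arrays and between 6553 and 58387 on sedentary arrays. Beside the same shares of all genes, white adipocyte markers had a median difference of 0.17 (1 of 10 rose) and mammary epithelium markers of 0.085 (1 of 7 fell). Macrophage markers had a median of -0.32, with 0 of 10 positive and 1 that fell. At an unadjusted p under 0.05, 4 of them were lower, against 10.5% of all genes. Lymphocyte markers had a median of -0.62, with 0 of 8 positive. None of these 8 passed, also at an unadjusted p under 0.05. Their summed signal lay between 6909 and 63129 on exercised arrays and between 9712 and 116174 on sedentary arrays. Sedentary array 5 had the lowest white adipocyte mean (13.79) and the highest macrophage (13.65) and lymphocyte (13.20) means of all 14 arrays. Exercised arrays 5 and 7 had the highest white adipocyte (15.06 and 14.81) and lowest lymphocyte (8.90 and 10.3) means of their group. The part of these cell types in the carrier values was not tested. The ratio of the 3' to the 5' Gapdh control, a sign of RNA quality, lay between 0.710 and 0.788 on exercised and 0.694 and 0.796 on sedentary arrays. With it as a covariate 6 carriers rose, where 2.34% of all genes did, and 1, Slc25a24, fell (-0.48, adjusted p = 0.0211), as did 92 of the 12944 genes. Differences of the 4 carriers that no longer passed were 0.99 for Slc25a34, 0.67 for Slc25a42, 0.63 for Slc25a10 and 0.39 for Slc25a39 (adjusted p 0.0558 to 0.0853).

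Other genes that move metabolites or ions across mitochondrial membranes were read from a list chosen with earlier results known, of which 28 of 34 were measured. By limma 7 of the 28 rose and 0 fell, against 4.0% and 1.53% of all genes tested. At an unadjusted p under 0.05 there were 16 higher, against 11.3% of all genes, and the median difference was 0.27, against -0.028 for all genes. Letm1, an ion exchanger of the inner membrane, rose by 0.91 (SE 0.12, adjusted p = 0.00143). Mpc1, a subunit of the pyruvate carrier, rose by 0.54 (SE 0.13, adjusted p = 0.0249), and Vdac1, the main pore of the outer membrane, by 0.53 (SE 0.13, adjusted p = 0.0275). Among relatives of the SLC25 family with other symbols, Ucp1, the heat-producing uncoupling protein, rose by 4.67 (SE 0.69), Ucp3 by 0.75 (SE 0.17, adjusted p = 0.0174) and Mtch2, an outer membrane protein, by 0.52 (SE 0.13, adjusted p = 0.0292). The seventh was Cpt2. Mtch1, a relative of Mtch2 added after its values were seen, differed by 0.037 (SE 0.10, adjusted p = 0.858), and Ucp2 and Mpc2 were not analysed here. Without exercised array 3, 5 or 7 the count was 4 in each case, where 2.56%, 2.45% and 2.39% of all genes rose. With the muscle mean as a covariate it was 3, where 1.41% of all genes rose.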

How the data were processed

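RNA extracted from frozen tissue was made into biotinylated cRNA, per the labels' protocols. The authors deposited linear microarray intensity values, which the submitters' processing notes credit to MAS5 without a version. Their trimmed mean (2% off each end) was 1500 on all 14 arrays, so any difference in total RNA is removed. Array medians were 531.3 to 617.4. The number of arrays limits precision.

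Values were taken as log2(signal + 46.7), the 10th percentile. Probe sets with means under 389.8 (the 40th percentile) and 64 control probe sets were left out. Of 45101 probe sets, 34945 had 1 symbol in the platform annotation, 932 several and 9160 none, and 34741 were matched to RefSeq (GRCm38.p6) by Entrez identifier. Each gene was read at its probe set with the highest mean. The groups were compared two-sided in R 4.3.3 using limma 3.58.1 (lmFit, then eBayes with a trend in the variance), adjusting by Benjamini-Hochberg for 12944 genes, threshold 0.05. The code was tested on simulated data.

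Substrate classes, lists and members were chosen with earlier results of these data known. By rule the text names each carrier that passed, the member of each class with the highest mean, each whose probe sets disagree in sign or call, and each under the filter. The remaining carriers have brief values. Alternatives were other scalings, pseudocounts, filters, probe set rules, variance models, covariates, a replicate block and left-out arrays.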

Additional observations from a re-analysis of the deposited data

Results flagged for a closer look

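In 8 of 74 groups of 7 arrays, 1 array stood apart from the other 6 by Dixon's criterion, which chance meets in about 1 of 20 groups. Sedentary array 5 was lowest for Slc25a10 (6680, next 11427), Slc25a17 (1435, next 2135) and Slc25a35 (1316, next 2658). Sedentary array 7 was highest for Slc25a24 (7871, next 5668) and Slc25a36 (10645, next 8859). Exercised array 7 was lowest for Slc25a16 (4837, next 5210), exercised array 5 highest for Slc25a25 (2230, next 1812) and exercised array 2 lowest for Slc25a3 (22315, next 28238).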

How the results depend on the processing

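The count of 10 carriers that rose lay between 8 and 13 under other scalings, pseudocounts, filters, probe set rules and variance models. Between 2.42% and 5.59% of all genes rose in those fits. With 1 array left out the count lay between 7 and 11, where 2.39% to 4.57% of all genes rose. It was 4 with a replicate block (Slc25a20, Slc25a33, Slc25a51 and Slc25a4), where 1.05% of all genes rose. It was 5 with the muscle mean (1.41%) and 6 with the Gapdh ratio (2.34%) as a covariate. In the 7 arrays with muscle means under 10 it was 0 (0.0155%), an alternative added after seeing the data that leaves 2 exercised arrays. The count that fell was 0 with any 1 array left out, where 79 to 262 of all genes fell. It was 1 (Slc25a24) with the Gapdh ratio, where 92 of all genes fell. With the mean of all probe sets it was 1 (-0.36, limma adjusted p = 0.034), where 207 of all genes fell. The 7 other transporters became 11 with the filter at the 60th percentile, where 5.59% of all genes rose, and 3 with the replicate block (1.05%). They became 3 with the muscle mean (1.41%), 0 in the arrays of low muscle level (0.0155%), and 4 to 9 with 1 array left out (2.39% to 4.57%). Calls over all genes went from 518 higher and 198 lower to 136 and 25 with the block. The labels do not say that a replicate number marks a shared cage, litter or day. Deviations of same-numbered arrays correlated between -0.425 and 0.381, and 3 of 7 exercised arrays correlated best with the sedentary array of their number. These values do not settle whether the numbers mark a pairing. Since the labels name none, the block is given as an alternative. Quantile normalisation ended the calls of Slc25a10 and Slc25a39 (adjusted p = 0.0692 and 0.0576). No carrier that passed changed sign in any alternative run.

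Signs turned only for carriers with small differences. Slc25a25 was 0.00077 with quantile normalisation, 0.017 with median centring, 0.019 with the Gapdh ratio, 0.0031 at low muscle level and -0.18 to 0.046 with 1 array left out. Slc25a40 was 0.022 with quantile normalisation, 0.021 with median centring and -0.055 to 0.043 with 1 array left out. With the muscle mean as a covariate and at low muscle level, Slc25a12 was -0.17 and -0.15, Slc25a32 was -0.0040 and -0.038, and Slc25a47 was -0.086 and -0.30 (-0.042 with the Gapdh ratio). Slc25a38 was 0.0029 at low muscle level. With the mean of all probe sets Slc25a36 was -0.017 and Slc25a3 -0.027. Slc25a30 was 0.0038 with array weights, and Slc25a37 was -0.0046 to 0.24 with 1 array left out. The causes were not tested.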
